A study of Mus musculus with 8 samples.

Results

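The heat shock chaperones of the cytosol and the mitochondrial matrix were described in liver RNA of 8 calorie-restricted mice, from every probe set whose platform gene symbol is Hspd1, Hspe1, Hspa9, Hspa8, Hsp90aa1, Hsp90ab1, Hsph1, Dnaja1, Hspb1 or Stip1. A probe set is a group of short oligonucleotides on an Affymetrix array that together read 1 transcript. The rule found 11 probe sets of 9 genes, among 12422 probe sets and 8251 named genes on the array, and none under the symbol Hsp90ab1, which was not analysed here. Of these, 9 probe sets of 8 genes lay above the level filter, a mean signal of 149, and the dim sets of Hsp90aa1 and Hspb1 lay below it.

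The animals were female Ames mice, a stock that carries a recessive allele (df) for pituitary dwarfism. All 8 were phenotypically normal, with the +/+ and +/df genotypes not separated in the labels, received 30% less food than freely fed normal females ate, and reached an age of 24 to 26 months. They form 1 group with n = 8, and each array is labelled as a mouse of its own. Freely fed or dwarf mice were not analysed here, so the values do not show what restriction did. They show how far each transcript differed between the arrays of these animals. With 1 array per mouse, differences between animals cannot be told apart from differences in RNA quality or array handling. A level below is a signal after quantile normalization, with no physical unit, and levels of different probe sets cannot be set against each other.

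Heat shock proteins bind unfolded or partly folded proteins and release them in cycles driven by ATP. In the mitochondrial matrix, incoming chains pass from the HSP70 protein encoded by Hspa9 to the barrel of HSP60 (Hspd1) closed by its lid HSP10 (Hspe1). In the cytosol, the constitutive HSP70 (Hspa8) works with a J protein that stimulates its ATPase (Dnaja1) and a nucleotide exchange factor (Hsph1), and the adaptor HOP (Stip1) hands clients on to HSP90 (Hsp90aa1, Hsp90ab1). Many of these genes are induced by heat shock factor 1, which binds inverted repeats of the unit GAA in their promoters, and the hepatocyte, with its dense mitochondria and high protein synthesis, uses them under basal conditions as well.

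Promoter sequences are shown for the members in which a search found at least 2 units of the inverted repeat. Binding of these letters by heat shock factor 1 was not tested. RefSeq promoter windows (assembly GRCm38.p6) were searched for 6 members, Hspd1, Hspe1, Hsph1, Dnaja1, Hspb1 and Stip1. Windows of members on 1 chromosome were left out, and the promoters of the other members were not searched. The search covered the 250 bases before each start, on both strands, for GAANNTTC or TTCNNGAA (2 units) and for GAANNTTCNNGAA or TTCNNGAANNTTC (3 units, each of which also holds matches to 2 units). Capitals mark the matches to 2 units, overlapping ones run together. Hspd1 and Hspe1 lie head to head, and the first stretch is the whole interval between their starts on chr1:55087933-55088147, plus strand, which is 215 bases long; the others are chr5:149636337-149636399 (Hsph1, minus strand), chr4:40722314-40722381 (Dnaja1, plus strand) and chr5:135887772-135887859 (Hspb1, plus strand).
Hspd1 and Hspe1: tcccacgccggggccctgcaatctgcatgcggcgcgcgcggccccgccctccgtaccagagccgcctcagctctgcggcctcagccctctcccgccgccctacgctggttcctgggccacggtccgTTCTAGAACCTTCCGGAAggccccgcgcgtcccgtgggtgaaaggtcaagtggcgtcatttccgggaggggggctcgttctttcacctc
Hsph1: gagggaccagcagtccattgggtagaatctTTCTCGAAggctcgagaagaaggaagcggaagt
Dnaja1: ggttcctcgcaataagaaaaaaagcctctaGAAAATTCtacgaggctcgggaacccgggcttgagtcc
Hspb1: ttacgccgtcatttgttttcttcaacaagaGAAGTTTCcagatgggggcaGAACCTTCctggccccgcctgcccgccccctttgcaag

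The stretch shared by the chaperonin genes held 3 overlapping matches to 2 units and 2 to 3 units, 72 to 89 bases before the start of Hspe1 and 127 to 144 bases before that of Hspd1. Hsph1 had 1 match to 2 units, 26 to 33 bases before the start shown, Dnaja1 had 1, 117 to 124 bases before the first of its 3 listed starts, and Hspb1 had 2, between 90 and 117 bases before its start. The windows of the other Dnaja1 starts and of another Hspd1 start held none. Among 32851 mouse promoter windows searched in the same way, 12.8% held 2 units and 0.466% held 3. The Stip1 window held no match to 2 units and 1 TATA box (TATAAA), a motif found in 12.4% of the windows. The GC box (GGGCGG), present in 32.7% of all windows, occurred in those of Hspd1, Hspe1, Hsph1, Dnaja1 and Hspb1.

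The arrays differed in quality in ways that touch the chaperones. The log2 ratio of 3′ to 5′ control probe sets for Gapdh reached 4.35 on replicate 5, while the other arrays had -0.24 to 0.33. For pyruvate carboxylase it reached 4.33 on replicate 5 and 4.30 on replicate 6, and 1.42 to 2.76 elsewhere. The median correlation of replicate 5 with the other arrays was 0.881, against 0.943 for replicate 6 and up to 0.974 for replicate 1. Ranges of the members and of most related lists, and most pair correlations, are therefore given with and without replicates 5 and 6. Likeness, neighbour counts and correlations with immediate early genes are given over all 8 arrays only. The part that RNA quality plays in any of these results was not tested. The 7 hepatocyte markers on the array were all above the filter and summed to a signal of 139816 to 145633 per array. The other marker sums ranged from 3887 to 6018 for macrophages (6 of 8 markers above the filter), 3498 to 4639 for endothelium (5 of 8), 7052 to 9532 for stellate cells and fibroblasts (7 of 8), 574 to 1040 for lymphocytes (2 of 8), 2831 to 7733 for erythroid cells (2 of 5), 518 to 1576 for skeletal muscle (3 of 6) and 611 to 2855 for exocrine pancreas (2 of 6). In bulk liver RNA, fewer cells of a type and less RNA per cell cannot be told apart.

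The mitochondrial chaperonin Hspd1 differed most on 2 arrays. Its main probe set (93277_at) read 12226, 12876, 12798, 11019 and 11886 on replicates 1 to 5, 8020 on replicate 6, 7022 on replicate 7 and 13101 on replicate 8, a mean of 11118 ± 2331 (SD, n = 8). Replicates 6 and 7 were low and the remaining 6 arrays lay close together, between 11019 and 13101. The range from lowest to highest was 1.87-fold with or without replicates 5 and 6, since replicate 7, with a pyruvate carboxylase ratio of 1.89, held the minimum. That range exceeded the range of 54.8% of 4810 kept genes over all arrays and of 86.6% without replicates 5 and 6. By limma's test, which sets the variance of a transcript against that of transcripts of like level, Hspd1 did not pass (log2 variance ratio 1.97, adjusted p = 0.962).

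The dimmer Hspd1 probe set (161140_r_at) went the other way; Affymetrix marks with r a set for which its probe selection rules were relaxed. It read 150 on replicate 1, 271 on replicate 2, 147 on replicate 3, 163 on replicate 4, 217 on replicate 5, 303 on replicate 6, 328 on replicate 7 and 159 on replicate 8, a mean of 217 ± 73.96 (SD, n = 8). Replicates 6 and 7, the lowest for the main set, were its highest. Over the 8 arrays the sets of this gene had a Pearson r of -0.74 (exact 2-sided permutation test over all pairings of the arrays, p = 0.0248, adjusted p = 0.0496 over the 2 such pairs) and a Spearman rho of -0.62 (exact p = 0.115, adjusted p = 0.230). Without replicates 6 and 7, the arrays farthest from the median, r was 0.11, so the relation rests on those arrays. It also lost the threshold under the deposited scaling (r = -0.74, exact adjusted p = 0.0558) and without replicate 1, 3, 5, 6, 7 or 8. The level of Hspd1 in replicates 6 and 7 relative to the others thus has opposite signs in its probe sets, and which set reads the gene was not tested.

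Hspe1, the lid of the chaperonin, was among the steadiest transcripts apart from replicate 5. Probe set 92829_at read 6228, 6557, 6917 and 6420 on replicates 1 to 4, 8574 on replicate 5, 6917 on replicate 6, 6420 on replicate 7 and 7393 on replicate 8 (mean 6928 ± 763, SD, n = 8). Replicate 5 stood highest and replicate 1 lowest. The range was 1.38-fold, wider than that of 11.4% of kept genes, and 1.19-fold without replicates 5 and 6 (adjusted p = 0.991 in limma's variance test).

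Although Hspe1 and Hspd1 share the promoter stretch shown above and their proteins form 1 complex, their transcripts were not found to move together. Pearson r was 0.24 and Spearman rho 0.31 (exact permutation p = 0.572, adjusted p = 0.728 over 28 member pairs), and r was 0.41 without replicates 5 and 6. The drop of the main Hspd1 set on replicates 6 and 7, where its dimmer set was highest, had no counterpart in Hspe1, which read 6917 and 6420 there. By likeness to Hspd1, Hspe1 ranked 1442 among 4809 other genes. A p of this size does not show that the pair is unrelated.

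Hspa9, the matrix HSP70 also called mortalin, read 5570, 5106, 5345 and 6158 on replicates 1 to 4, 7911 on replicate 5, 6686 on replicate 6, 5315 on replicate 7 and 6008 on replicate 8 (97914_at, mean 6012 ± 928, SD, n = 8). The highest values were those of replicates 5 and 6, the arrays with the high 3′ to 5′ ratios. Without them the range fell from 1.55-fold, wider than 27.8% of genes, to 1.21-fold, wider than 12.4% of them. In limma's variance test the adjusted p was 0.989.

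In the cytosolic HSP70 system, Hspa8 had a narrow range over all 8 arrays, and neither its lowest nor its highest value lay on replicate 5 or 6. Probe set 96564_at read 2640 on replicate 1, 3761 on replicate 2, 3155 on replicate 3, 3426 on replicate 4, 3238 on replicate 5, 2929 on replicate 6, 3056 on replicate 7 and 3080 on replicate 8 (mean 3160 ± 334, SD, n = 8). Replicate 1 was low and replicate 2 high, with the other 6 arrays between 2929 and 3426. Its coefficient of variation was 10.6%, the lowest among the 8 kept genes over all arrays, and its range was 1.42-fold with or without replicates 5 and 6. That range was wider than that of 15.8% of genes over all arrays and of 51.4% without those 2, where its coefficient of variation was 11.9%, above the 6.43% of Hspe1 and the 7.46% of Hspa9.

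Hsph1, the HSP110 exchange factor of HSP70, was low on replicate 1 and high on replicate 6. Its signals (98111_at) were 486, 732, 641, 703 and 702 on replicates 1 to 5, 1013 on replicate 6, 732 on replicate 7 and 804 on replicate 8 (mean 727 ± 149, SD, n = 8). The range of 2.09-fold fell to 1.66-fold without replicates 5 and 6 and to 1.58-fold without replicate 1 alone. The other 6 arrays lay between 641 and 804.

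Dnaja1, a J protein partner of Hspa8, had its lowest value on the same array as Hspa8 and Hsph1. It read 1897, 2632, 2043, 2093, 2659 and 2309 on replicates 1 to 6, 3037 on replicate 7 and 2293 on replicate 8 (97261_at, mean 2370 ± 381, SD, n = 8). Replicates 2, 5 and 7 were above the other 5 arrays, and the range was 1.60-fold with or without replicates 5 and 6. In limma's variance test the adjusted p was 0.989 for both Hsph1 and Dnaja1 and 0.995 for Hspa8.

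Of the HSP90 branch, the stress-inducible Hsp90aa1 was read by a bright and a dim set. The bright set (95282_at) gave 1774, 2217, 2004 and 2675 on replicates 1 to 4, 2441 on replicate 5, 2388 on replicate 6, 1552 on replicate 7 and 2022 on replicate 8 (mean 2134 ± 369, SD, n = 8). Replicate 7 was lowest and replicate 4 highest, a range of 1.72-fold with or without replicates 5 and 6 (adjusted p = 0.989 in limma's variance test). The dim set (161869_i_at) was at or under the floor of 24.6 on 5 of 8 arrays and reached 39.7 on replicate 5; in the deposited values, 31.3 on replicate 5 and 32.1 on replicate 7 were its highest. The sets did not track each other (r = 0.09, exact permutation p = 0.833, adjusted p = 0.833), and a set near the floor carries little order.

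Stip1, the adaptor between HSP70 and HSP90, had the widest range among the kept members, and replicate 5 set it. Its signals (100081_at) were 459, 358, 472 and 376 on replicates 1 to 4, 147 on replicate 5, 332 on replicate 6, 393 on replicate 7 and 486 on replicate 8 (mean 378 ± 109, SD, n = 8). Replicate 5 lay apart below the other 7 arrays, which ran from 332 to 486. The range was 3.32-fold, wider than that of 91.5% of kept genes, and 1.36-fold without replicates 5 and 6, wider than 40.7% (log2 variance ratio 1.97, adjusted p = 0.962 in limma's test). Replicate 5 also had the Gapdh 3′ to 5′ ratio given above.

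The small heat shock protein Hspb1, which holds unfolded proteins without ATP, was near the floor of the array. It read 22.0, 5.8, 42.7, 34.9, 9.0, 84.5, 78.1 and 46.1 on replicates 1 to 8 (92853_at), with 3 of 8 arrays at or under the floor. Replicates 6 and 7 were highest. The set did not enter the variance test, and no fold is drawn from it.

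**Figure D1:**
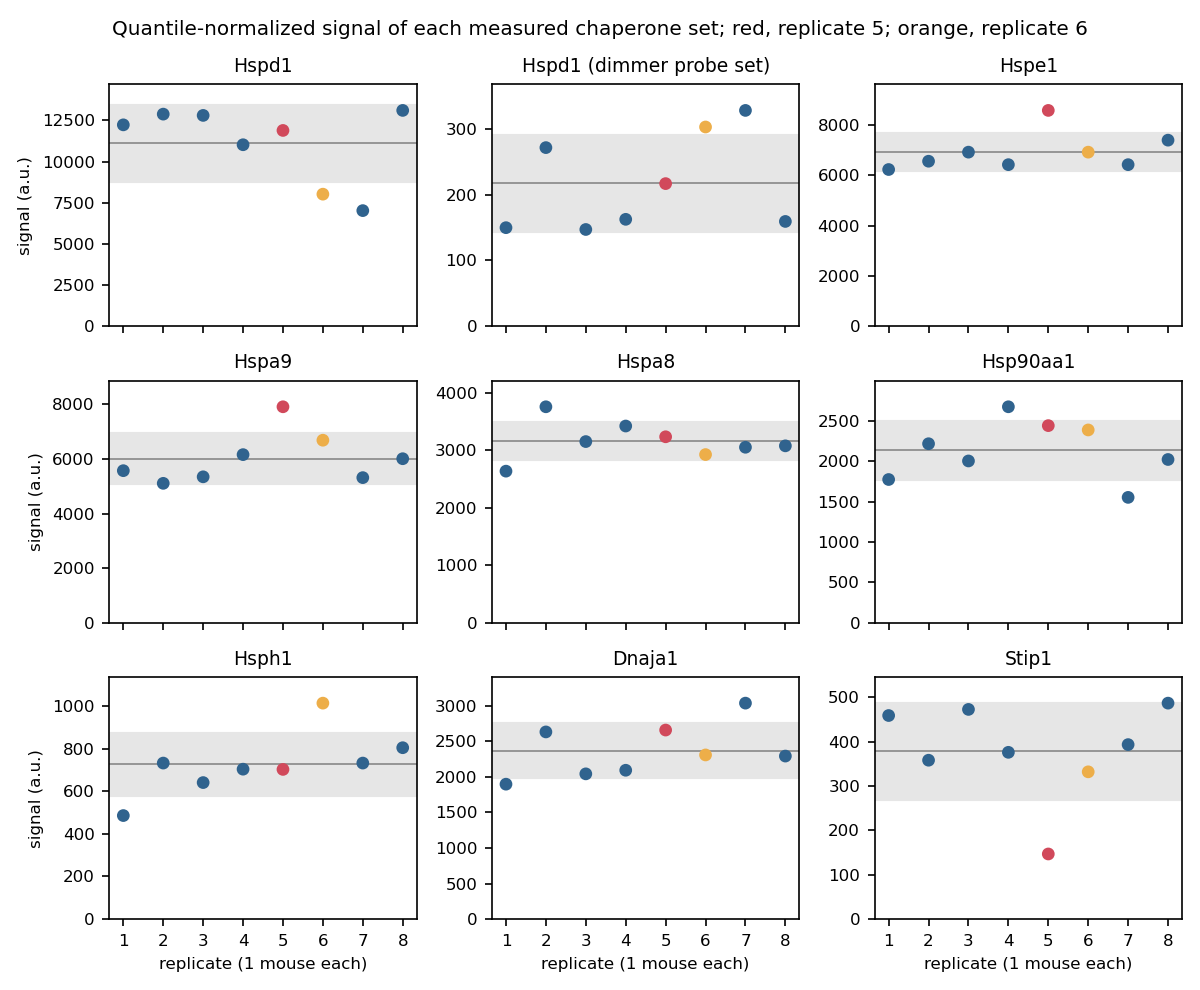
Each panel plots the quantile-normalized signal (y axis, arbitrary units, from 0) of 1 kept probe set on the 8 arrays (x axis, replicate number, 1 mouse each); the line is the mean, the grey band 1 SD to either side, and replicates 5 and 6 are coloured. Hspd1 was low on replicates 6 and 7 (8020 and 7022), where its dimmer set was high (303 and 328), and Stip1 was low on replicate 5 (147).

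None of the chaperone genes was called variable between arrays, and their spread lay near that of the other transcripts. In limma's variance test none of the 9 kept member sets passed at an adjusted p of 0.05, beside 0 of 6211 probe sets (0%). None was under an unadjusted 0.05, beside 352 (5.67%). Even Reg1, with a range of 65.3-fold, did not pass this test (adjusted p = 0.841), so not passing says little about a member. The median log2 variance ratio was 0.13 for the 8 genes and 0.09 for all kept genes, and 5 of the 8 (62.5%) were above 0, beside 52.6% of all kept genes. A range over 2-fold was seen in 2 of 8 genes, Hsph1 and Stip1, which is 25% beside a background of 37.2%, and in 0 of 8 without replicates 5 and 6, beside 10.1%. The median range was 1.66-fold against 1.80-fold for all kept genes and, without replicates 5 and 6, 1.51-fold against 1.42-fold. The order of the members by range changed with those arrays: Stip1 was the widest with them and narrower than Hspd1, Hsp90aa1, Hsph1, Dnaja1 and Hspa8 without them, and Hspd1 became the widest.

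**Figure D2:**
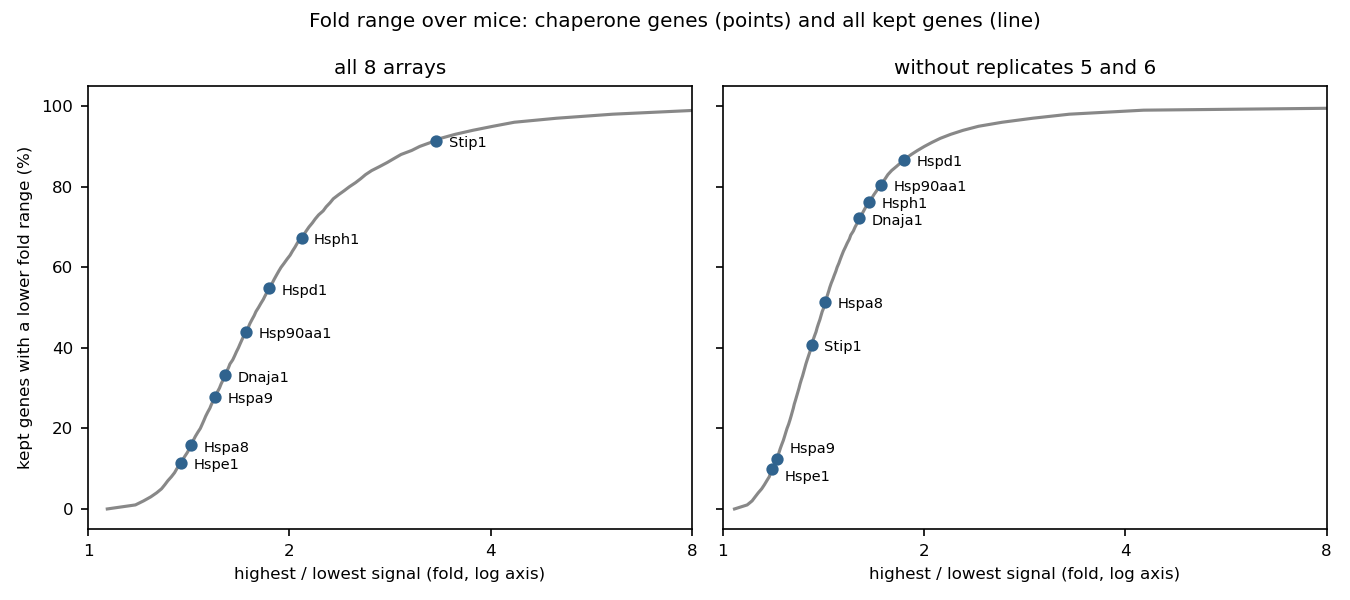
For each of the 8 kept chaperone genes (points), the x axis gives the highest over the lowest signal between mice (fold, log axis) and the y axis the percent of 4810 kept genes with a lower range; the line is the distribution over all kept genes, with all arrays on the left and without replicates 5 and 6 on the right. Stip1 moves from 91.5% to 40.7% and Hspd1 from 54.8% to 86.6%.

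Replicate 1 held the lowest value of 4 of the 8 genes, Hspe1, Hspa8, Hsph1 and Dnaja1, while 5.49% of 4810 kept genes had their lowest value there. None of the members had its highest value on replicate 1, beside 6.05% of genes. This count was noticed in the values and was then recomputed. Under the deposited scaling the same 4 genes were lowest on replicate 1, beside 4.74% of genes (highest there, 0 of 8 beside 6.17%). Without replicates 5 and 6 these 4 genes had to stay lowest there, since leaving out other arrays cannot change that. No other member joined them, and 10.6% of genes were lowest there in that setting (highest, 0 of 8 beside 13.8%). Hspa8 on replicate 1 was at 2640 against 2929 to 3761 on the other arrays, Hsph1 at 486 against 641 to 1013, Dnaja1 at 1897 against 2043 to 3037, and Hspe1 at 6228 against 6420 to 8574. The other members were not lowest on that mouse. Hsp90aa1 was second lowest there (1774), as was the dimmer set of Hspd1 (150), Hspa9 was below its median (5570 against 5789), and the main set of Hspd1 (12226) and Stip1 (459) were above theirs.

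The lowest arrays of the other genes were replicate 7 for Hspd1 and Hsp90aa1, replicate 2 for Hspa9 and replicate 5 for Stip1. On replicate 1 the control ratios were -0.22 for Gapdh and 2.76 for pyruvate carboxylase, and the marker sums of hepatocytes (145633) and of stellate cells and fibroblasts (9532) were their highest. The part of these values in the count was not tested. Of 26 other cytosolic chaperones, 4 were lowest on replicate 1, where 5.49% of all kept genes were, and so were 0 of 9 other mitochondrial chaperones and proteases, 0 of 12 genes of the chaperonin TRiC and prefoldin and 0 of 10 chaperones of the endoplasmic reticulum. These counts take the brightest set of each gene. The cytosolic ones included the stress-inducible HSP70 Hspa1b, at 180 on replicate 1 and 262 to 514 on the other arrays (a set that the near-identical Hspa1a transcript may also bind). They also included the brightest set of Hspa4, a relative of Hsph1, at 716 against 758 to 1116, but its other kept sets were lowest on replicates 2, 4 and 7. Chordc1, also among them, was lowest on replicate 6 in another kept set (160330_at).

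Replicate 5, the array with the highest 3′ to 5′ control ratios, held the lowest value of 1 member (Stip1) beside 28.3% of kept genes and the highest of 2 (Hspe1 and Hspa9) beside 34.1%. Under the deposited scaling these were the same genes, beside 32.6% and 31.6%. Replicate 8 was highest for 2 members, Hspd1 and Stip1, beside 6.13% of genes, but under the deposited scaling only for Stip1 (5.99% of genes), Hspd1 then being highest on replicate 3. Without replicates 5 and 6 it was highest for Hspe1 and Hsph1 as well, 4 of 8 beside 18.9%.

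**Figure D3:**
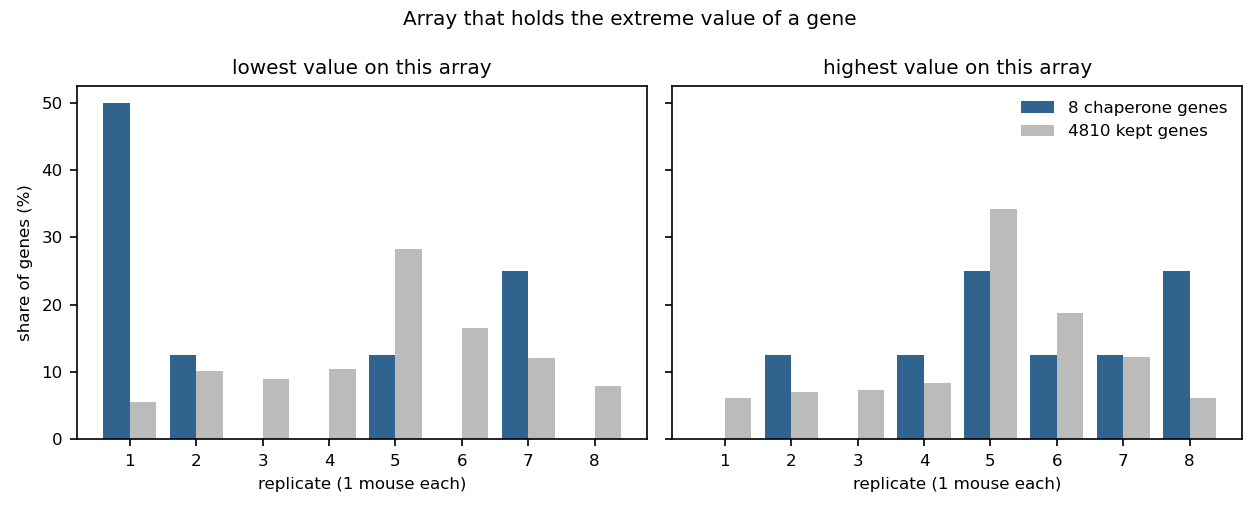
Bars give the percent of genes (y axis) whose lowest value (left) or highest value (right) fell on each array (x axis, replicate number), for the 8 chaperone genes and for 4810 kept genes. On the left, 4 of 8 chaperones were lowest on replicate 1 beside 5.49% of genes; on the right, replicate 5 held the highest value of 34.1% of genes.

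Pairs of chaperones were then compared over the 8 mice, to see which rise and fall together. None of the 28 pairs passed after adjustment (lowest adjusted p = 0.449, exact 2-sided permutation tests), and 2 pairs were under an unadjusted 0.05, with none passing by Spearman's rho. Hspe1 and Hspa9, chaperones of 1 compartment, had r = 0.78 (rho = 0.48, exact p = 0.0277, adjusted p = 0.449), which became 0.25 without replicates 5 and 6, both genes being highest on replicate 5. Hspa9 and Stip1 had r = -0.80 (rho = -0.43, exact p = 0.0320, adjusted p = 0.449), which turned to 0.25 without those arrays. Both relations rest on replicates 5 and 6.

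Across all pairs, 17 of 28 correlations were positive and the median r was 0.18, against 0.00 for all 11565645 pairs of kept genes. An r of 0.7 or more was reached by 1 pair (3.57%), where 8% of all gene pairs reach it, and an r of -0.7 or less by 2 pairs, where 7.74% do. The cytosolic HSP70 partners Hspa8 and Dnaja1 had r = 0.39 with or without replicates 5 and 6, Hspa8 and Hsph1 r = 0.27, or 0.66 without them, and Hsph1 and Dnaja1 r = 0.43, or 0.63 without them. None of these pairs passed the adjusted test. With the 2 arrays farthest from the median left out, which for Hspa8 include replicate 1, r of Hspa8 with Hsph1 was -0.70 and that with Dnaja1 -0.30, so the positive values of Hspa8 with both partners rest on its extreme arrays.

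Hsp90aa1 and its adaptor Stip1, which bind each other as proteins, had r = -0.47 (rho = -0.62, exact p = 0.254, adjusted p = 0.714). Over all 8 arrays the highest r of Hsp90aa1 with another member was that with Hspa9 (r = 0.59, rho = 0.67, exact p = 0.123, adjusted p = 0.714), and without replicates 5 and 6 that with Hspa8 (0.64), before Hspd1 (0.53) and Hspa9 (0.48). Stip1 had a positive r with only 1 of the other 7 members, Hspd1 at 0.05, and without replicates 5 and 6 with Hspd1 (0.36), Hspe1 (0.56) and Hspa9 (0.25).

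**Figure D4:**
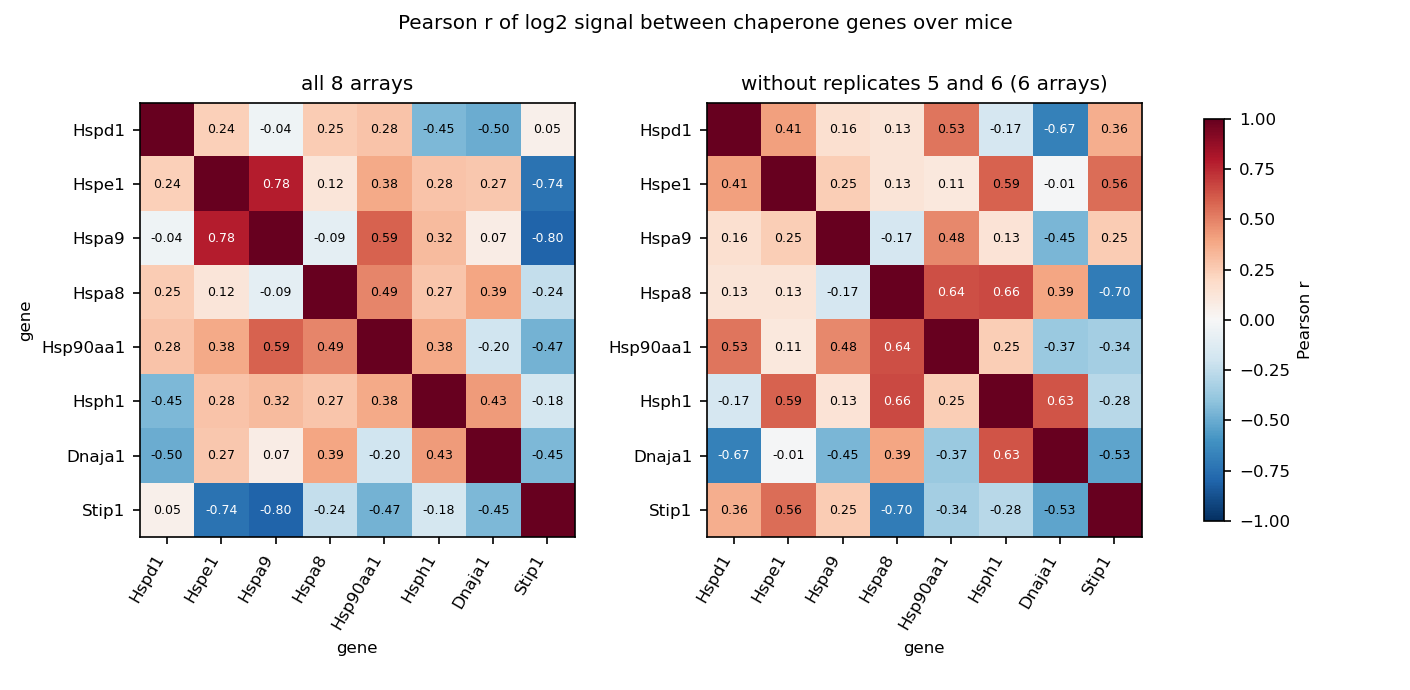
Colours and numbers give Pearson's r of the log2 signals of each pair of the 8 chaperone genes (rows and columns), over 8 arrays on the left and over 6 arrays, without replicates 5 and 6, on the right. The strong values of Hspe1, Hspa9 and Stip1 on the left (0.78, -0.74 and -0.80) are 0.25, 0.56 and 0.25 on the right.

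The members were also set against single genes of neighbouring responses, the endoplasmic reticulum chaperone Hspa5, the cold-inducible RNA-binding protein Cirbp, the clock and glucocorticoid target Per1 and the metallothionein Mt1. The array had no probe set under the symbol Hsf1, which was not analysed here. None of the 32 pairs passed (lowest adjusted p = 0.404, exact permutation tests), and 3 were under an unadjusted 0.05. Stip1 and Hspa5 had r = 0.91 (rho = 0.38, exact p = 0.0349, adjusted p = 0.404), and r = 0.01 without replicates 5 and 6. Hspe1 and Hspa5 had r = -0.84 (rho = -0.66, exact p = 0.0372, adjusted p = 0.404), and -0.15 without those arrays. Hspe1 and Per1 had r = -0.72 (rho = -0.59, exact p = 0.0379, adjusted p = 0.404), and -0.70 without them, but 0.23 without replicates 5 and 8, the arrays farthest from the median of Hspe1.

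The genes whose pattern over the 8 arrays was most like each member were picked as the highest of 4809 values and carry no test. For Hspd1 they were Fth1, the heavy chain of ferritin (r = 0.95), the carboxylesterase Ces1c (0.93) and the cell cycle kinase Wee1 (0.93), and all 3 were lowest on replicate 7, as the main set of Hspd1 was. For Hspe1 they were Ptpra (0.97), BC031181 (0.97) and the kinase Wnk1 (0.97), and for Hspa9 the ribosomal protein Rps3a1 (0.98), Paxbp1 (0.97) and Ank3 (0.97). All 6 of those were highest on replicate 5.

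For Hspa8 the most alike were AI413582 (0.88), Plac8 (0.87) and the polycomb gene Pcgf2 (0.86), each lowest on replicate 1 and highest on replicate 2. Those of Hsph1, R3hcc1 (0.97), the threonine aldolase Tha1 (0.95) and the chromatin remodeller Chd4 (0.94), were lowest on replicate 1 and highest on replicate 6. Dnaja1 was followed by Pnrc1 (0.99), a nuclear receptor coactivator, the lipopolysaccharide receptor Cd14 (0.97) and Vkorc1 (0.96), which recycles vitamin K for clotting factors, and these were lowest on replicate 1 and highest on replicate 7. Hsp90aa1 was followed by Kcmf1 (0.93), the immunoproteasome subunit Psmb8 (0.93) and Galnt1 (0.92), all lowest on replicate 7, and Stip1 by Pomgnt1 (0.99), Sppl2b (0.99) and the anticoagulant protease gene Proc (0.99), all lowest on replicate 5.

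Members with their highest or lowest value on replicate 5 had more neighbours than the others. An r of 0.7 or more was reached with 769 genes by Stip1 (15.99%), with 716 by Hspe1 (14.9%) and with 628 by Hspa9 (13.1%). Hspd1 reached it with 222 genes (4.62%), Hsph1 with 97 (2.02%), Hsp90aa1 with 88 (1.83%), Dnaja1 with 81 (1.68%) and Hspa8 with 23 (0.478%). Beside these shares, 8% of all pairs of kept genes reached it. The counts were not redone without replicate 5 and were not tested.

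Other chaperones and co-chaperones of the cytosol numbered 40 listed genes, of which 33 were on the array and 26 above the filter. Their median range was 2.04-fold, and 14 (53.8%) exceeded 2-fold, beside 37.2% of all kept genes. Without replicate 5 the median was 1.496-fold and 4 (15.4%) exceeded 2-fold, beside 16.5%, and without replicates 5 and 6 these were 1.39-fold and 3, beside 10.1% of genes. By limma's variance test 1 was under an unadjusted 0.05 and none passed adjusted. The most variable, by the brightest set of each gene, were the BAG domain gene Bag6, at 272 on replicate 5 and 778 to 1044 elsewhere, Bag2, at 185 on replicate 8 and 354 to 621 elsewhere, the glucocorticoid-induced HSP90 partner Fkbp5, at 3426 on replicate 6 and 1169 to 1948 elsewhere, and the small heat shock protein Hspb8, at 1481 on replicate 5 and 3218 to 3956 elsewhere. Another kept set of Bag2 (160962_at) read 360 on replicate 8 and ran only from 357 to 479. Of the other kept Bag6 sets, 93912_at and 93921_at were also lowest on replicate 5, but 101854_r_at was highest there, at 343. Replicate 5 held the lowest value of 9 of the 26 (34.6%) and the highest of another 9, beside 28.3% and 34.1% of all kept genes.

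Among partners of the members, Dnajb1, a heat-inducible J protein of HSP70, read 201 on replicate 5 and 312 to 385 elsewhere, and its r with Stip1, low on the same array, was 0.94, or 0.41 without replicates 5 and 6. The kinase-specific HSP90 partner Cdc37 read 510 on replicate 5 and 1152 to 1611 elsewhere. The sets of a gene did not always read the same array alike. Bag3, which links HSP70 to autophagy, ran from 221 on replicate 5 to 554 on replicate 3 in its brightest set, while another kept set (161980_f_at) was highest on replicate 5, at 328. Fkbp4, an immunophilin of HSP90, ran from 2020 on replicate 6 to 2984 on replicate 7, and St13, which stabilizes HSP70 with bound ADP, from 721 on replicate 7 to 1198 on replicate 5, the array where another St13 set (97310_at) was lowest, at 175. The brightest set of Hspa4 had r = 0.92 with Dnaja1 (0.95 without replicates 5 and 6), both lowest on replicate 1 and highest on replicate 7; its other 3 kept sets were highest on replicate 5.

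Of 15 listed genes for other mitochondrial chaperones and proteases, 10 were on the array and 9 above the filter. Their median range was 1.74-fold (1.44-fold without replicates 5 and 6). A range over 2-fold was seen in 3 of the 9, beside 37.2% of all kept genes. Without replicates 5 and 6 it was seen in none of them, beside 10.1%. Timm44, which tethers Hspa9 to the import channel, read 232 on replicate 5 and 479 to 745 elsewhere. Grpel1, the exchange factor of Hspa9, read 597 on replicate 5 and 847 to 1215 elsewhere. So these partners were lowest on the array where Hspa9 was highest (7911), and the r of Timm44 with Hspa9 was -0.52, or 0.45 without replicates 5 and 6. The peptidyl-prolyl isomerase Ppif ran from 620 to 1325, the J protein Dnaja3 from 1642 to 2613, and the brightest set of the protease Htra2 from 2606 to 4131. This Htra2 set had r = -0.93 with the main set of Hspd1 (-0.90 without replicates 5 and 6), being highest on replicates 7 and 6 where that Hspd1 set was lowest. Another kept set of Htra2 (104102_at) ran from 32.4 on replicate 5 to 258 on replicate 6.

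The cytosolic chaperonin TRiC and prefoldin, which fold actin and tubulin, had 12 of 15 listed genes above the filter and a median range of 1.82-fold (1.37-fold without replicates 5 and 6). Vbp1 was high on replicate 5 (1433, 468 to 783 elsewhere), while Pfdn2 (342, 638 to 833 elsewhere) and the brightest set of Cct3 (489, 805 to 1108 elsewhere) were low there. Other kept sets of Cct3 were lowest on replicate 4 (98153_at) and on replicate 1 (161238_f_at). Cct4 was high on replicate 6 (3221, 1530 to 2002 elsewhere), the brightest set of Cct5 ran only from 2104 to 2579, and Tcp1 from 228 to 311. Another kept set of Cct5 (161514_at) ran from 90.2 on replicate 1 to 532 on replicate 5. Of the heat shock factor genes, Hsbp1, a binding protein of the factors, ran from 413 to 684, and Hsf2 and Hsf4 were below the filter.

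The chaperones of the endoplasmic reticulum were set beside the members as the most similar other system. Of their 10 kept genes, from 16 listed, the median range was 2.50-fold and 6 (60%) exceeded 2-fold, beside 37.2% of all kept genes. Without replicates 5 and 6 the median was 1.38-fold and 0 exceeded 2-fold, beside 10.1%. Their lowest array was replicate 5 for 6 of 10 (28.3% of all kept genes), against 1 of 8 heat shock chaperones, and their highest was replicate 5 for the other 4 (34.1% of all), against 2 of 8; neither difference was tested. Pdia4 (283 on replicate 5, 828.5 to 1524 elsewhere), Pdia6 (459, 1275 to 1856 elsewhere), P4hb (1116, 2049 to 3756 elsewhere), Pdia3 (653, 936 to 1789 elsewhere) and Hspa5 (2138, 3846 to 4823 elsewhere) were low there in their brightest sets, and Hsp90b1, the HSP90 of this compartment, was highest there (8518, 5902 to 8235 elsewhere). Another kept set of Pdia6 (94207_at) was highest on replicate 5, at 1012. The dimmer kept set of P4hb (93108_at) read 176 there and ran only from 117 to 183. Of the members, Stip1 had a median r of 0.54 with this set, Hspe1 of -0.55 and Hspa9 of -0.42. Without replicates 5 and 6 these medians were 0.08, 0.39 and 0.27, so the signs of Hspe1 and Hspa9 turned.

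Immediate early and stress genes, which can respond to handling before death, had 10 of 16 genes above the filter. Their median range was 1.95-fold, and 1.92-fold without replicates 5 and 6. A range over 2-fold was seen in 4 of the 10 (40%) in either case. Beside this stood 37.2% of all kept genes, and 10.1% without replicates 5 and 6. Gadd45a ran from 44.8 on replicate 6 to 559 on replicate 5, Dusp1 from 640 to 1483, Fosb from 253 to 523, Btg2 from 179 to 531 and Hmox1 from 559 to 1059. The median r of the 8 chaperones with this set lay between -0.51 for Hspd1 and 0.20 for Hsph1. The glucocorticoid- and metal-induced Mt1 reached 15672 on replicate 6 and 3613 to 6014 elsewhere, Per1 ran from 157 on replicate 5 to 909 on replicate 6, and Cirbp from 554 to 769.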

How the data were processed

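Per the labels, liver RNA of each of 8 mice was hybridized to an Affymetrix mouse U74Av2 array and read on a Hewlett-Packard GeneArray scanner. The deposited values are intensities on a linear scale, 1 per probe set and array, scaled by the authors: their trimmed means (2% cut from either tail) lay at 500.38 to 500.41, and medians ran from 132 to 166. The software is not given in the sources used here, nor is its correction for background or mismatches. No 2 arrays held identical values (pairwise r from 0.870 to 0.979), and the number of animals limits the precision.

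From the deposited table of 12488 probe sets, 66 controls were removed. The rest were quantile-normalized, raised to a floor at the 20th percentile of positive values (24.6) and put on the log2 scale; the 6211 probe sets with a mean above the median (signal 149; 4810 genes) were kept, and the brightest set stood for a gene. Gene symbols came from the platform annotation (10833 probe sets with 1 symbol, 396 with several, left unnamed, and 1193 with none). Quantile normalization limits how far the brightest sets can differ. limma 3.58.1 in R 4.3.3 fitted a mean over the 8 arrays, with 7 residual and 4.03 prior degrees of freedom, and a 1-sided F test compared each variance with a trended, robust prior, with Benjamini-Hochberg adjustment over all kept sets at 0.05. Correlations used exact 2-sided permutation over 40320 pairings (numpy 2.4.6, Python 3.11.15), adjusted within 28 member pairs, 32 pairs with single genes and 2 pairs of probe sets. Likeness, list counts, extremes and promoter motifs are descriptions without a test.

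Named genes were all member sets, the 3 genes of highest r with each member, Hspa5, Cirbp, Per1, Mt1 and Hsf1, and, of each related list, the 4 most variable, the 2 brightest and a fixed set of partners. The members, the lists and the tests were chosen with earlier results of these data known. Protein comparisons were not made. Results were recomputed without quantile normalization (deposited scaling), with the floor raised to percentile 40, with the filter dropped or raised to percentile 75, without each replicate, without replicates 5 and 6 together, and with a gene's probe sets averaged. List ranges without replicate 5 and list correlations without replicates 5 and 6 were added after seeing the data.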

Additional observations from a re-analysis of the deposited data

Results flagged for a closer look

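Of 72 probe sets examined, 23 had a highest or lowest array whose gap to the next exceeded 0.526 of the whole range over the 8 arrays; chance flags about 1 in 20 sets of a neutral choice, and these sets were not one, since they include the most variable genes of each list and the genes most like each member. The extreme lay on replicate 5 in 17 of them and on replicate 6 in 2, and 2 of them were members. Among the members, the dim Hsp90aa1 set (161869_i_at) was at 39.7 on replicate 5, with the others from 5.5 to 29.8 and 5 of 8 arrays at or under the floor; in the deposited values its highest was replicate 7 (32.1), with 31.3 on replicate 5. Stip1 was at 147 on replicate 5, with the others from 332 to 486.

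Of the other chaperones, each read by the brightest set of its gene, the values low on replicate 5 were those of Bag6 (272), Hspb8 (1481), Dnajb1 (201), Cdc37 (510), Timm44 (232), Pfdn2 (342), Cct3 (489), Pdia4 (283), Pdia6 (459) and Hspa5 (2138), and Vbp1 was high there (1433). Bag2 was low on replicate 8 (185), where its other kept set read 360, and Cct4 was high on replicate 6 (3221). Of the remaining named genes, Mt1 was high on replicate 6 (15672), Btg2 low on replicate 4 (179), Plac8 high on replicate 2 (1642), Chd4 low on replicate 1 (919) and Wnk1 high on replicate 5 (1164). Pomgnt1 (27.7), Sppl2b (65.6) and Proc (6206), the genes most like Stip1, were low on replicate 5. Replicate 5 also had the Gapdh 3′ to 5′ log2 ratio of 4.35, and its part in these values was not tested.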

How the results depend on the processing

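No paired analysis was possible because the labels give 1 group. The count of probe sets past limma's variance test (0), of member pairs (0) and of pairs with single genes (0) past their tests was 0 under every alternative run for each. The count of members lowest on replicate 1 was 4 under the deposited scaling and without replicates 5 and 6, the alternatives added after seeing the data. Leaving out replicates 5 and 6 could not lower that count, so it is no check of it. The agreement of probe sets of a gene, 1 pair past the threshold, fell to 0 under the deposited scaling and to 0 without replicates 5 and 6, and ranged from 0 to 1 with each replicate left out; it was lost without replicate 1, 3, 5, 6, 7 or 8, with r from -0.59 to -0.93 over the 8 such fits and adjusted p from 0.0218 to 0.250 (exact permutation). A reversal was looked for only where a correlation had passed its threshold. Only 1 pair of probe sets had done so, and its r stayed negative under these alternatives. Of the 28 member correlations, 23 kept their sign without replicates 5 and 6, and of the 32 with single genes 20 did. The r of Hspa9 with Hspa5 went from -0.70 to 0.85 without those arrays, and neither value passed the adjusted test. Under the floor at the 40th percentile the dim Hsp90aa1 set was constant and its r could not be fitted. Of the fold ranges recomputed, 106 moved by less than the spread and 15 by more, among the latter Stip1 without replicate 5 (1.47-fold) and Hspe1 under the deposited scaling (1.56-fold). Unadjusted calls of the variance test numbered 352 under the settings used and 36 with no filter; the cause was not tested. In comparisons added after seeing the data, the median r of the endoplasmic reticulum chaperones kept its sign with 4 of the 8 members and changed it with 4 without replicates 5 and 6.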
